A study of Mus musculus with 6 samples.

Results

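Expression of 10 regulators of the BCL2 protein family was examined in pancreatic islets of mice with and without a beta-cell knockout of Ythdc1, which encodes a nuclear protein that binds N6-methyladenosine in RNA. The members were taken by gene symbol. They were 3 pro-survival genes (Bcl2, Bcl2l1 and Mcl1) and 7 pro-death genes, of which Bax and Bak1 encode the pore formers and Bid, Bad, Bcl2l11, Bbc3 and Pmaip1 encode BH3-only proteins. All 10 were found among the 54532 genes of the table. 9 of them were tested, and Pmaip1 was not, because it reached 0.5 FPKM (fragments per kilobase of a gene, after scaling for library size) in 1 library while the test asked for 3. In all, 15717 genes were tested.

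The 3 control libraries carry the genotype label Ythdc1flox/flox, and the 3 knockout libraries (bKO) carry the label Ythdc1-betaKO. All mice were 7 weeks old, the RNA came from whole islets, and the labels call the replicates independent. The labels name no treatment, and the sources used here do not give the promoter that drove the recombinase or whether controls carried it. For bKO replicates 2 and 3 the free-text note names a different Ythdc gene from the genotype label. Ythdc1 stood at 5.76, 6.46 and 6.18 FPKM in control and at 3.81, 3.79 and 3.87 FPKM in bKO, so it was low in all 3 bKO libraries, replicates 2 and 3 included. Its log2 fold change was -0.56 (SE 0.058, adjusted p by limma = 0.0014).

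BCL2 family proteins set whether the outer mitochondrial membrane is opened during apoptosis. BAX and BAK form the pores, the pro-survival proteins BCL2, BCLXL and MCL1 bind and restrain them, and BH3-only proteins either neutralise the pro-survival proteins or activate the pore formers directly. In beta cells this pathway is known as a route by which endoplasmic reticulum stress, DNA damage and inflammatory cytokines lead to cell loss.

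Of the 9 tested members, Bbc3 and Mcl1 rose in bKO islets and 0 fell (adjusted p by limma under 0.05). Bbc3 encodes PUMA, a BH3-only protein, and went from 7.56 ± 0.099 to 11.8 ± 0.96 FPKM (SD, n = 3 per group), 1.56 times the control mean. Mcl1 went from 34.2 ± 1.9 to 39.1 ± 0.84 FPKM, 1.14 times the control mean. The other 7 tested members were not called, with log2 fold changes between -0.23 and 0.27. The 2 of 9 members called, 22.2%, stand beside 20.3% of all tested genes called in either direction (8.96% higher and 11.4% lower). Over all genes the calls were 1408 higher and 1784 lower, but 3684 higher and 737 lower when libraries were scaled by total reads, which moved the median log2 fold change of all genes from -0.01 to 0.13. At an unadjusted p under 0.05 there were 3 members higher and 1 lower, and limma-voom on recovered reads called 4 higher and 1 lower. The median log2 fold change of the 9 was 0.00, against -0.01 for all tested genes. These are mRNA levels of whole islets, in which fewer cells of a type and less RNA per cell cannot be told apart.

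The libraries held 16863329 to 18240339 reads. The cell types of the islet moved between the groups. Of 8 beta-cell markers 5 fell and 1 rose, with a summed level of 201000 to 223000 FPKM in control and 131000 to 140000 in bKO. Of 8 alpha-, delta- and PP-cell markers 3 rose and 0 fell (limma, also 0 at an unadjusted p under 0.05 and 0 by voom), and their sum was 27900 to 31100 FPKM in control and 35100 to 35400 in bKO. Of 12 tested macrophage markers 5 fell and 0 rose (limma, also 0 unadjusted and 0 by voom), and the sum over all 14 was 127 to 145 FPKM in control and 78.7 to 96.3 in bKO. Only 1 of 8 lymphocyte markers could be tested and it fell, the B-cell gene Cd79a, and the sum over the 8 was 4.22 to 6.92 FPKM in control and 1.05 to 1.92 in bKO. Of 8 endothelial markers 4 rose and 0 fell (limma, also 0 unadjusted and 0 by voom), with sums of 153 to 180 and 200 to 204 FPKM. Acinar markers summed to 49.2 to 168 FPKM in control and 99.7 to 141 in bKO, and 0 of 9 tested were called (limma, also 0 unadjusted, and 1 higher by voom). No marker of these lists was at 0 reads in all 6 libraries. The part of these cell types in the changes of the family members was not tested.

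**Figure D1:**
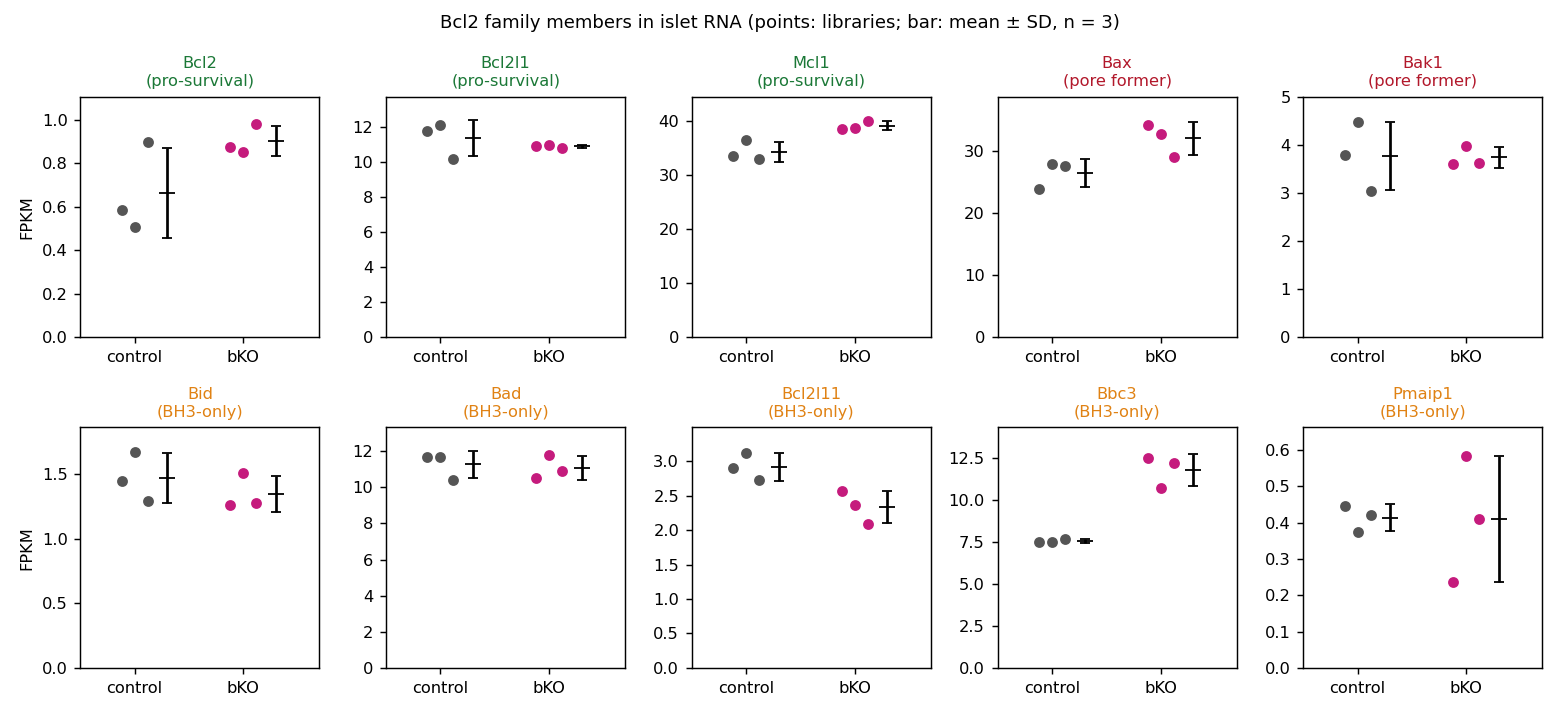
FPKM of each of the 10 members in the 3 control and 3 bKO libraries (points), with the mean ± SD of each group as a bar beside them and a separate vertical axis from 0 for each gene. The bKO points of Mcl1, Bax and Bbc3 lie above all control points, those of Bcl2l11 lie below them, and the groups of the other 6 members overlap.

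In control islets the levels per length spanned from 34.2 ± 1.9 FPKM for Mcl1 to 0.413 ± 0.037 FPKM for Pmaip1. Mcl1 was followed by Bax at 26.5 ± 2.2 FPKM, then by Bcl2l1 at 11.4 ± 0.99 and Bad at 11.3 ± 0.75, whose control libraries overlapped. Bbc3 came next at 7.56 ± 0.099 FPKM, then Bak1 at 3.78 ± 0.72 and Bcl2l11 at 2.91 ± 0.20, which overlapped as well. Bid stood at 1.47 ± 0.19 and Bcl2 at 0.662 ± 0.21 FPKM. Mcl1 was above 93.4% of the tested genes in control and Bcl2 above 9.59%, so Bcl2, the gene that names the family, was the least abundant of the 3 pro-survival mRNAs. In bKO islets the order was the same except that Bad and Bcl2l1 changed places and that Bbc3, at 11.8 ± 0.96 FPKM, reached the range of Bad (11.1 ± 0.68) and Bcl2l1 (10.9 ± 0.11), with which its bKO libraries overlapped.

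Bbc3 (ENSMUSG00000002083, chromosome 7, 16308393 to 16318205, GRCm38) had the largest log2 fold change and the smallest adjusted p of the 9 tested members. Its level was 7.51, 7.49 and 7.67 FPKM in the control libraries and 12.5, 10.7 and 12.2 FPKM in the bKO libraries. The control libraries lay close together, and every bKO library was above all of them. The log2 fold change was 0.58 (SE 0.0636, 95% interval 0.42 to 0.73, adjusted p by limma = 0.0019), and 714 of the 15717 tested genes had a larger rise. The values rest on 795 reads in control and 1398 in bKO. Bbc3 was called under all 14 alternative settings, with log2 fold changes of 0.54 to 0.74.

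PUMA is known as a p53 target, and forkhead box O (FOXO) factors are also known to act on its gene, so the RefSeq promoter windows of the members were searched for the motifs of both. The table (build GRCm38.p6) held 15 windows for 9 of the 10 members, each 250 bases before to 50 bases after an annotated start, and none for Pmaip1. A p53 response element was scored as 2 copies of its 10-base unit with at most 13 bases between them and at most 3 mismatches in all. It was found in 2 of the 15 windows, 1 of Bbc3 and 1 of Bax, and in 6.72% of all 32851 windows of the table. The forkhead motif GTAAACA, on either strand, was found in 2 of the 15, 1 of Bbc3 and 1 of Bcl2l11, and in 3.65% of all windows. The stretches that hold these matches are shown for Bbc3, which was called, and for Bax and Bcl2l11, which were not. These are 3 of the 4 members whose groups did not overlap (44.4% of the 9 tested, beside 40.1% of all tested genes). The part of these motifs in any change was not tested. Each is the 250 bases before the start, 5′ to 3′ on the gene's strand, with the match in capitals.
Bbc3, p53 response element, chr7:16309333-16309582, plus strand: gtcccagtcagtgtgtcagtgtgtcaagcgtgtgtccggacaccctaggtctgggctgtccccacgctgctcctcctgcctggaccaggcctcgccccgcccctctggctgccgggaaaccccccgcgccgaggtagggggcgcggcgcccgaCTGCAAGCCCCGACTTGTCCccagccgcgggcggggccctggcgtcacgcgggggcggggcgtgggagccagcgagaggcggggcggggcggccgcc
Bax, p53 response element, chr7:45466899-45467148, minus strand: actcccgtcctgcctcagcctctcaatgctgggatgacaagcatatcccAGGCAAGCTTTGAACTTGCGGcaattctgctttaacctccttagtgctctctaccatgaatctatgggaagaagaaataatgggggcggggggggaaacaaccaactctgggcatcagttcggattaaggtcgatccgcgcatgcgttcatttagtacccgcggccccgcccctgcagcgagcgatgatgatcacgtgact
Bbc3, forkhead motif, chr7:16310011-16310260, plus strand: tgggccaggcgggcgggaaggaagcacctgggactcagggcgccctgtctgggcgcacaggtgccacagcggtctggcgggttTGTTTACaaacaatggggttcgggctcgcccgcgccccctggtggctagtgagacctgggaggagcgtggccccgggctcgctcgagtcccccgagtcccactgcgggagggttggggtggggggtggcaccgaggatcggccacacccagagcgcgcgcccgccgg
Bcl2l11, forkhead motif, chr2:128125788-128126037, plus strand: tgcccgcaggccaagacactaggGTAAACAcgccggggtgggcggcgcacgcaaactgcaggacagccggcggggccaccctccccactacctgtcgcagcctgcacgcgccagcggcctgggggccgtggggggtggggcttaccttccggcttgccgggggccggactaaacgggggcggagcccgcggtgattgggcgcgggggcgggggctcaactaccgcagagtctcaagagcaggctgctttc

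The p53 match of Bbc3 began 97 bases before the start and had 3 mismatches with no base between its units. That of Bax began 201 bases before the start and had 2 mismatches and 1 base between the units. The forkhead match of Bbc3 lay 167 bases before a second annotated start and reads TGTTTAC on the gene's strand, the reverse complement of the motif. That of Bcl2l11 lay 227 bases before the start. The 4 stretches overlapped 0 annotated exons in GENCODE vM21. Both Bbc3 stretches lie inside the gene downstream of its first exon, that of Bax lies inside the span of the gene Gm45808, and that of Bcl2l11 lies in no annotated gene. Other motifs searched on both strands were the ATF4 and C/EBP element TGATGNAA, the cAMP response element TGACGTCA, its shorter core TGACGT (which every TGACGTCA holds), the AP-1 site TGACTCA and the E-box CACGTG. TGATGNAA, TGACGTCA and TGACTCA were in 0 of the 15 windows (3.97%, 1.79% and 5.20% of all windows). TGACGT was in the Bcl2 window (7.51% of all windows), and CACGTG was in 1 window each of Bbc3 and Bax (7.15% of all). These are matches of letters and not measured binding.

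Among the pro-survival genes, Mcl1 (chromosome 3, 95658788 to 95663176) encodes a short-lived protein that binds BAK and some of the BH3-only proteins. It was at 33.4, 36.4 and 32.9 FPKM in control and at 38.5, 38.7 and 40.0 FPKM in bKO. All bKO libraries were above all control libraries, and the nearest pair was 36.4 and 38.5 FPKM. The log2 fold change was 0.19 (SE 0.0477, 95% interval 0.07 to 0.30, adjusted p by limma = 0.035). The call was lost without control replicate 1 or 3 or without any of the 3 bKO libraries, where the log2 fold change was 0.16 to 0.20 and the adjusted p by limma 0.080 to 0.11, and also with no filter on low values (adjusted p by limma = 0.059). It held without control replicate 2 (0.23, adjusted p by limma = 0.020) and with voom (0.19, adjusted p = 0.0085), and with total scaling the log2 fold change was 0.36.

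Bcl2l1 (chromosome 2, 152780668 to 152831728) encodes BCLXL and, by use of another splice site, a shorter pro-death form. Its level was 11.8, 12.1 and 10.2 FPKM in control and 10.9, 11.0 and 10.8 FPKM in bKO. The bKO libraries lay within the control range, and the log2 fold change was -0.05 (95% interval -0.21 to 0.10, adjusted p by limma = 0.61). Under the alternative settings it ran from -0.12 to 0.11, and the highest of these, with total scaling, stands beside the median of 0.13 for all genes there. The annotation holds 8 protein-coding transcripts of Bcl2l1, 5 of Bcl2l11, 5 of Bax and 2 of Mcl1, and 1 value per gene does not separate them.

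Bcl2 itself (chromosome 1, 106538178 to 106714274) was low in both groups. It had 86, 80 and 133 reads in the control libraries, or 0.583, 0.507 and 0.896 FPKM, and 154, 141 and 166 reads in the bKO libraries, or 0.876, 0.850 and 0.980 FPKM. Control replicate 3 lay inside the bKO range and the other two control libraries below it. The log2 fold change was 0.20 on the log2(FPKM + 1) scale, which understates changes at this level (95% interval -0.08 to 0.49, adjusted p by limma = 0.29). With voom on reads it was 0.49 (SE 0.181, adjusted p = 0.045), the only one of 13 alternatives under which Bcl2 was called. A filter of 1 FPKM removed the gene.

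Of the pore formers, Bax (ENSMUSG00000003873, chromosome 7, 45461697 to 45466898) was at 24.0, 28.0 and 27.6 FPKM in control and at 34.3, 32.9 and 29.1 FPKM in bKO. The groups did not overlap, and bKO replicate 3 stood near the controls. The means were 26.5 ± 2.2 and 32.1 ± 2.7 FPKM (SD, n = 3 per group), a log2 fold change of 0.27 (SE 0.0811, 95% interval 0.07 to 0.46) that missed the threshold (adjusted p by limma = 0.061). Bax was called with libraries scaled by their totals (0.44, adjusted p by limma = 0.013), with quantile normalization (0.34, adjusted p by limma = 0.036), with voom (0.27, adjusted p = 0.0097) and without bKO replicate 3 (0.33, adjusted p by limma = 0.042). Bak1 (chromosome 17, 27019810 to 27029009), which encodes the other pore former, was at 3.79, 4.48 and 3.05 FPKM in control and 3.61, 3.99 and 3.64 FPKM in bKO. The bKO libraries lay within the control range (log2 fold change 0.00, 95% interval -0.27 to 0.27, adjusted p by limma = 0.99).

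Among the BH3-only genes other than Bbc3, Bcl2l11 (chromosome 2, 128126038 to 128162547) encodes BIM, which binds all pro-survival proteins and can activate BAX. It was at 2.90, 3.12 and 2.72 FPKM in control and at 2.56, 2.36 and 2.09 FPKM in bKO. All bKO libraries were below all controls, and bKO replicate 1 was the nearest to them. The log2 fold change was -0.23 (SE 0.0814, 95% interval -0.42 to -0.04, adjusted p by limma = 0.092), and with voom it was -0.32 (adjusted p = 0.017), the only one of 14 alternatives that called it. With total scaling it was -0.10 (adjusted p by limma = 0.38). BIM is abundant in lymphocytes and other immune cells, whose markers were lower in bKO islets by the sums given above, and their part in this difference was not tested. Bbc3 and Bcl2l11 had the largest rise and the largest fall among the tested members. Their ratio was therefore bound to differ between the groups and is no result beyond the values of each gene. Bbc3 mRNA per length was 2.59, 2.40 and 2.82 times Bcl2l11 in the control libraries and 4.86, 4.53 and 5.84 times in the bKO libraries.

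Bad (chromosome 19, 6941861 to 6951898) encodes a BH3-only protein that phosphorylation by survival kinases holds inactive. It was at 11.7, 11.7 and 10.4 FPKM in control and 10.5, 11.8 and 10.9 FPKM in bKO (log2 fold change -0.02, 95% interval -0.18 to 0.13, adjusted p by limma = 0.83). Bid (chromosome 6, 120891930 to 120916853), which links death receptors to mitochondria once a caspase has cut its protein, was at 1.45, 1.67 and 1.29 FPKM in control and 1.26, 1.51 and 1.28 FPKM in bKO (log2 fold change -0.07, 95% interval -0.30 to 0.16, adjusted p by limma = 0.65). The groups overlapped for both genes. Pmaip1 on chromosome 18, which encodes the MCL1 ligand NOXA, had 19, 17 and 18 reads in the control libraries and 12, 28 and 20 in the bKO libraries. A change of Pmaip1 was not detectable at this depth, and with no filter on low values its log2 fold change was -0.01 (95% interval -0.27 to 0.25, adjusted p by limma = 0.96). The log2(FPKM + 1) scale understates changes at this level, so the interval does not bound the change of Pmaip1 mRNA.

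Some members share exons with a neighbour, and the strand setting of the counting was not given. Bad shares 524 exon bases with Gpr137 on the other strand, which measured 10.9 to 11.7 FPKM in control and 13.5 to 14.8 in bKO. Bid shares 628 exon bases with Bcl2l13 on the other strand, at 6.28 to 7.35 FPKM in control and 5.74 to 6.15 in bKO. Bak1 shares 437 with the opposite-strand gene Ggnbp1, at 1.22 to 1.47 and 1.56 to 2.25 FPKM. The values of Bad, Bid and Bak1 are uncertain to that extent. Bax shares 192 of its 1576 exon bases with Gm45808 on the same strand. Bcl2 shares 558 of 9157 with D630008O14Rik on the other strand. The genes that overlap Bax and Bcl2 were at 0 FPKM, which does not show whether reads of the shared bases were counted for Bax and Bcl2. Bbc3, Mcl1, Bcl2l1 and Bcl2l11 overlap 0 annotated genes.

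**Figure D2:**
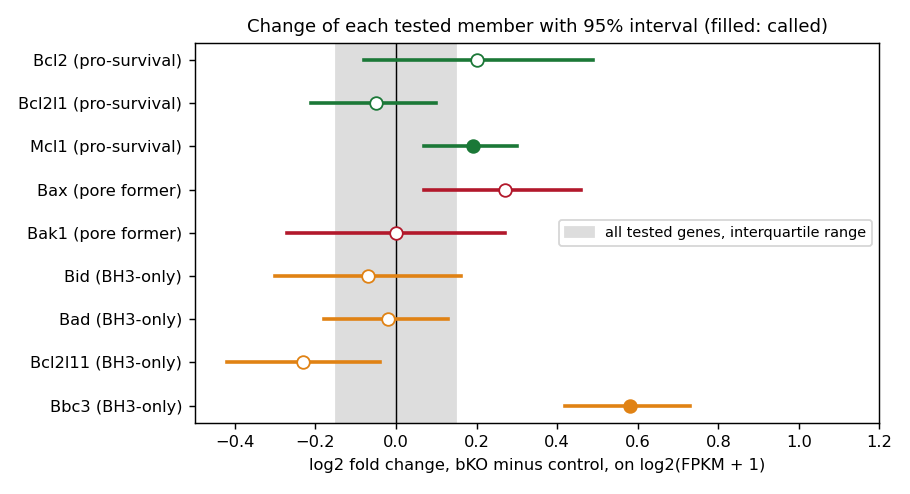
Log2 fold change of the 9 tested members (bKO minus control on log2(FPKM + 1), points) with its 95% interval (lines), coloured by role, with filled points for members called at a adjusted p by limma under 0.05. Bbc3 at 0.58 and Mcl1 at 0.19 are filled, the intervals of Bax and Bcl2l11 exclude 0 without a call, and the grey band from -0.15 to 0.15 is the interquartile range of all tested genes.

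The groups of 4 of the 9 tested members did not overlap in FPKM, 3 higher in bKO and 1 lower. This is 44.4%, beside 40.1% of all tested genes (18.5% higher and 21.6% lower), so the family as a whole did not stand apart from other genes by this count.

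Pro-survival members were then set against pro-death members. Summed over the 3 pro-survival genes, the level was 45.8, 49.0 and 44.0 FPKM in control and 50.3, 50.5 and 51.8 FPKM in bKO. Summed over the 7 pro-death genes, it was 51.8, 56.9 and 53.2 FPKM in control and 64.9, 63.8 and 59.7 FPKM in bKO. Both sums were higher in every bKO library than in every control library. The ratio of the first sum to the second was 0.884, 0.861 and 0.828 in control and 0.775, 0.792 and 0.868 in bKO. These ratios overlapped, with bKO replicate 3 inside the control range, and had means of 0.858 ± 0.028 and 0.812 ± 0.05 (SD, n = 3 per group).

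The sums rest on few genes. Mcl1 made up 73.0% to 74.7% of the pro-survival sum in control and 76.5% to 77.3% in bKO. Bax made up 46.3% to 51.9% of the pro-death sum in control and 48.8% to 52.8% in bKO, while the share of Bbc3 was 13.2% to 14.5% in control and 16.7% to 20.4% in bKO. Weighting each gene equally, the mean log2(FPKM + 1) of pro-survival minus pro-death members was 0.66, 0.61 and 0.72 in control and 0.70, 0.64 and 0.77 in bKO. The difference between the groups was 0.04, with SDs of 0.06 in control and 0.065 in bKO, so it did not exceed the spread between replicates. No test was made on these scores over chosen members.

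Single pairs of genes gave different pictures. Bax stood at 0.717, 0.769 and 0.840 times Mcl1 in control and 0.891, 0.850 and 0.727 times in bKO, which overlap. Bbc3 stood at 0.225, 0.206 and 0.233 times Mcl1 in control and 0.323, 0.276 and 0.305 times in bKO, which do not. The ratio of Bax to Bcl2, often used as a summary of apoptotic readiness, was 30.8 to 55.2 in control and 29.7 to 39.2 in bKO. The Bcl2 side of this ratio rests on 80 to 166 reads per library.

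**Figure D3:**
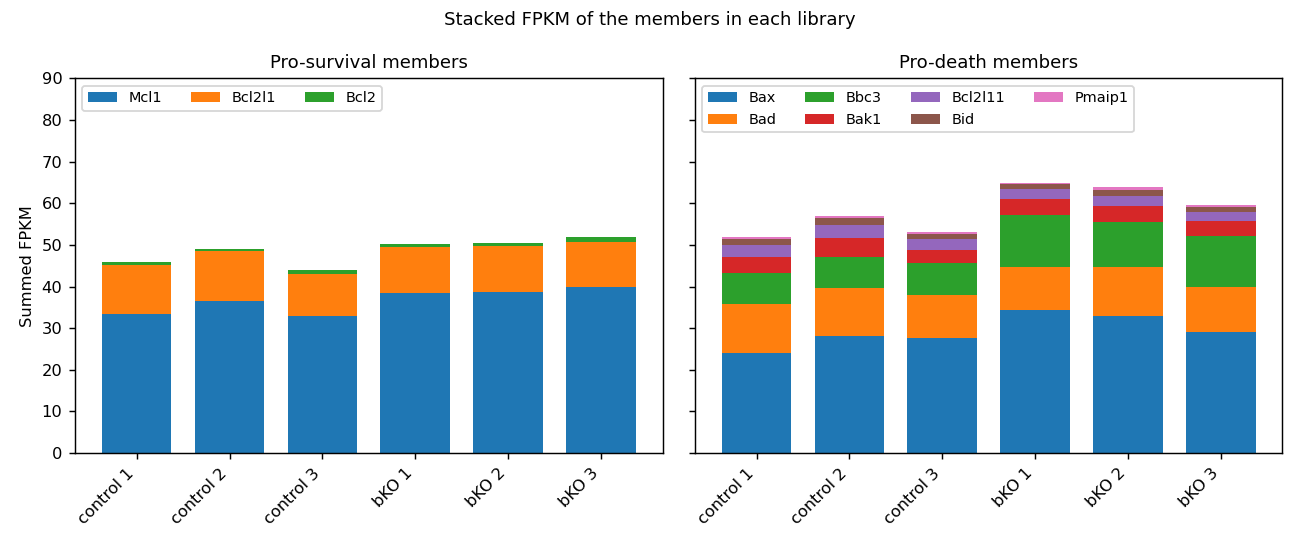
FPKM of the 3 pro-survival members (left) and the 7 pro-death members (right) stacked to their sum in each of the 6 libraries, on 1 vertical axis from 0. Mcl1 and Bax are the largest blocks of their sides, and both stacks are taller in the bKO libraries, at 50.3 to 51.8 and 59.7 to 64.9 FPKM.

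Other lists of the cell death pathway were counted in the same fit. In that fit 20.3% of all tested genes were called (8.96% higher and 11.4% lower). The lists were chosen with earlier results of these data known, so their counts do not measure an enrichment. Of 17 other BCL2 family genes 9 were tested and 0 were called (limma), with 1 higher and 2 lower both at an unadjusted p under 0.05 and by voom, and a median log2 fold change of -0.09. The most abundant was the pro-survival gene Bcl2l2, at 25.1 ± 2.2 FPKM in control and 25.3 ± 1.0 in bKO (SD, n = 3 per group). The BH3-only gene Bmf, named here after its values were seen, was at 1.21, 1.41 and 1.29 FPKM in control and 2.31, 1.76 and 1.52 FPKM in bKO (log2 fold change 0.31, adjusted p by limma = 0.11), and was called with total scaling (0.41, adjusted p by limma = 0.044) and with voom (0.50, adjusted p = 0.027). Of the Bcl2a1 genes, pro-survival genes of blood cells that are near-identical copies and can share reads, Bcl2a1c was at 0 reads in every library and the other 3 did not pass the filter.

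Of 11 genes of the apoptosome and the caspases, the machinery downstream of the mitochondrial pore, all were tested and 0 were called (limma), with 0 higher and 2 lower at an unadjusted p under 0.05 and 0 of either kind by voom. Their median log2 fold change was 0.06. Apaf1, the scaffold of the apoptosome, measured 1.35 ± 0.11 FPKM in control and 1.60 ± 0.088 in bKO (adjusted p by limma = 0.26), and Casp9, its initiator caspase, at 3.21 ± 0.18 and 3.40 ± 0.34 (adjusted p by limma = 0.62).

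Of 5 inhibitor of apoptosis genes, 1 rose and 1 fell, or 40.0% called beside 20.3% of all tested genes. Xiap, which encodes a direct caspase inhibitor, went from 7.72 ± 0.069 to 8.96 ± 0.34 FPKM (log2 fold change 0.19, adjusted p by limma = 0.031). Birc5, survivin, which also serves cell division, went from 1.01 ± 0.13 to 0.343 ± 0.11 FPKM (log2 fold change -0.58, adjusted p by limma = 0.015). Xiap missed the threshold when any 1 control library, bKO replicate 2 or bKO replicate 3 was left out (log2 fold change 0.18 to 0.20), and Birc5 when control replicate 1 was left out (-0.56, adjusted p by limma = 0.059). Both sizes depend on the scale: Xiap was at 0.35 with total scaling, and Birc5, a low gene that a filter of 1 FPKM removed, was at -0.84 and -1.34 with pseudocounts of 0.5 and 0.1 and at -1.57 with voom. Of 9 tested death receptor genes, Tnfrsf1a, the main receptor of tumour necrosis factor, fell from 16.1 ± 1.3 to 13.1 ± 0.31 FPKM (log2 fold change -0.28, adjusted p by limma = 0.021) and 0 rose (limma, also 0 at an unadjusted p under 0.05 and 0 by voom). The call did not hold with total scaling (-0.12, adjusted p by limma = 0.14), which called 2 genes of this list higher and 0 lower, nor in the fits that left out control replicate 1, control replicate 2 or any bKO library (-0.23 to -0.29, adjusted p by limma = 0.056 to 0.075).

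Of 9 tested genes in a list of upstream transcription factors, 3 rose and 1 fell, or 44.4% called beside 20.3% of all tested genes. Because this list was chosen with earlier results of these data known, the share does not measure an enrichment. Ddit3, which encodes the endoplasmic reticulum stress factor CHOP, was at 11.9, 12.9 and 12.8 FPKM in control and 28.8, 27.5 and 24.8 FPKM in bKO (log2 fold change 1.05, SE 0.0636, adjusted p by limma = 0.00024). Jun went from 65.6 ± 8.4 to 102 ± 15 FPKM (0.63, adjusted p by limma = 0.014) and Atf4, the stress factor upstream of CHOP, from 111 ± 6.7 to 136 ± 9.1 FPKM (0.29, adjusted p by limma = 0.021). Mafa, a beta-cell identity factor that is also among the beta-cell markers counted above, fell by 1.54 on the log2 scale (adjusted p by limma = 0.0003). Jun missed the threshold when control replicate 1 was left out (0.61, adjusted p by limma = 0.053). Atf4 missed it without control replicate 1, bKO replicate 1 or bKO replicate 2 (0.24 to 0.30, adjusted p by limma = 0.058 to 0.062) and with no filter on low values (adjusted p by limma = 0.051), and with total scaling it was at 0.47. Trp53, which encodes p53, was at 5.53, 6.47 and 5.22 FPKM in control and 7.49, 6.64 and 5.92 FPKM in bKO, which overlap (log2 fold change 0.19, adjusted p by limma = 0.23, and 0.34 and 0.045 with total scaling). Foxo1 and Foxo3, named for their motif above, were at -0.23 and 0.00 on the log2 scale (adjusted p by limma = 0.052 and 1.0).

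Of 14 genes whose products act on BCL2 family proteins, 1 rose and 5 fell, or 42.9% called beside 20.3% of all tested genes. With total scaling 3 rose and 1 fell, where 3684 of all 15717 tested genes rose and 737 fell. Usp9x, whose enzyme removes ubiquitin from MCL1, went from 31.5 ± 0.50 to 25.2 ± 0.91 FPKM (log2 fold change -0.31, adjusted p by limma = 0.0034), and was at -0.14 with total scaling, where it was still called. Akt1 and Akt2, whose kinases phosphorylate BAD, fell by 0.25 and 0.28 on the log2 scale (adjusted p by limma = 0.011 and 0.0070), and Ywhaz, an adaptor that holds phosphorylated BAD, fell by 0.27 (adjusted p by limma = 0.018). With libraries scaled by their totals the calls of Akt1, Akt2 and Ywhaz were lost (-0.08, -0.11 and -0.10). Ywhaz also missed the threshold with quantile normalization (-0.16, adjusted p by limma = 0.071) and when bKO replicate 1 or 2 was left out (-0.25 and -0.28, adjusted p by limma = 0.068 and 0.051). The other two were named after their values were seen: the kinase gene Pim3 rose by 0.54 (adjusted p by limma = 0.048), and Fkbp8, whose protein anchors BCL2 at mitochondria, was at -0.13 (adjusted p by limma = 0.038) but at 0.04 with total scaling. Pim3 kept its call in 1 of the 6 fits that left out a library, the one without control replicate 2, and Fkbp8 in 0 of the 6.

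**Figure D4:**
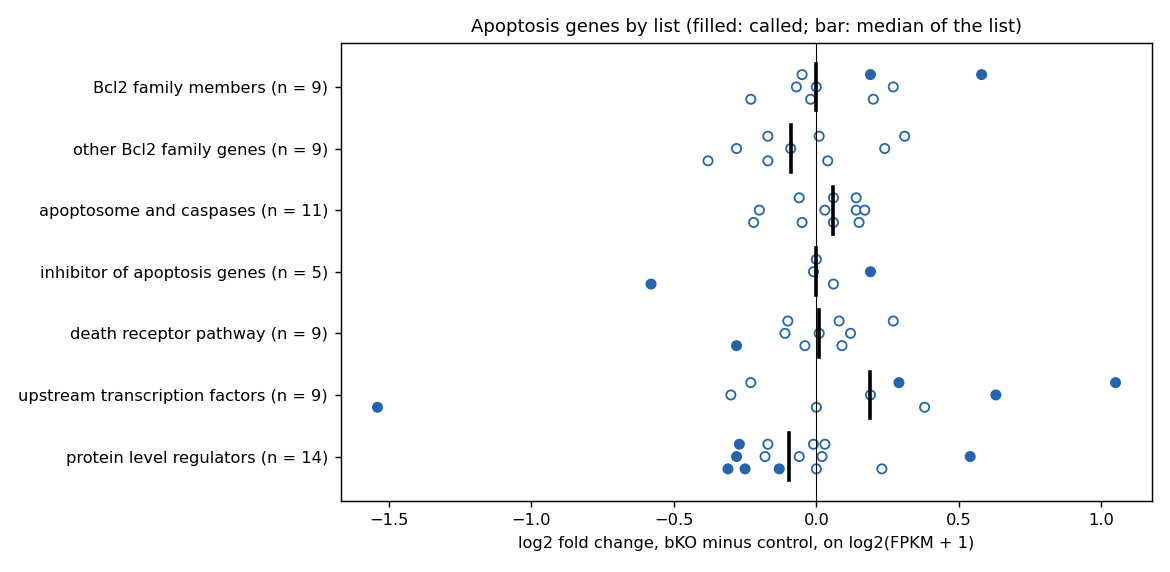
Log2 fold change (bKO minus control on log2(FPKM + 1)) of the tested genes of 7 lists, 1 point per gene, filled where called at a adjusted p by limma under 0.05, with a black bar at the median of each list. The medians lie between -0.09 and 0.19, and the points farthest from 0 are Mafa at -1.54 and Ddit3 at 1.05.

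**Figure D5:**
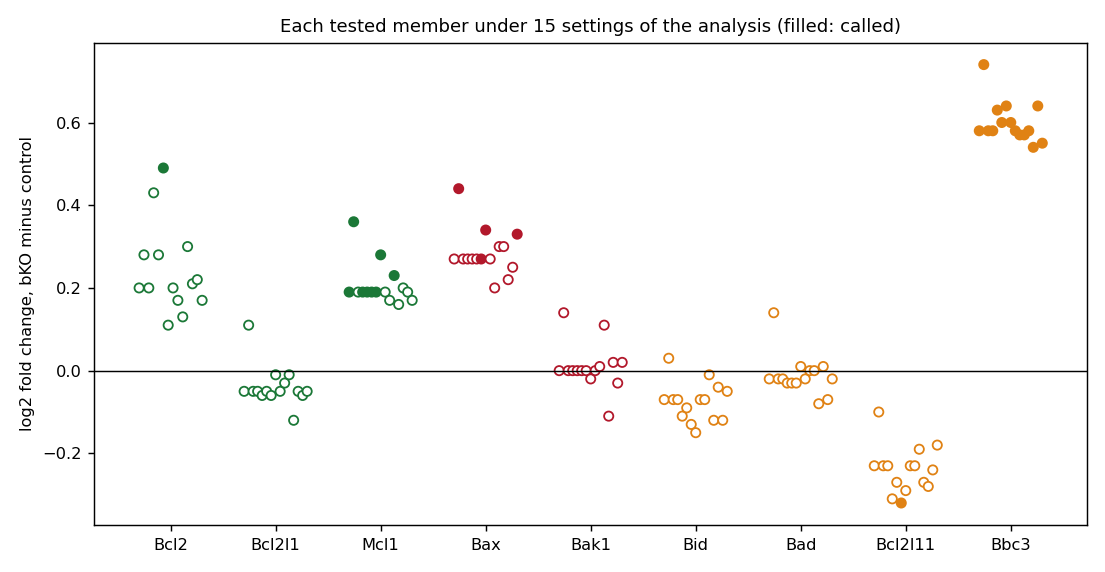
Log2 fold change (bKO minus control) of each tested member under the 15 settings of the analysis (14 for Bcl2), 1 point per setting, filled where called. Every point of Bbc3 is filled, between 0.54 and 0.74, while those of Mcl1 and Bax are filled in 8 and 4 settings, and those of Bcl2l1, Bak1, Bid and Bad lie on both sides of 0.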

How the data were processed

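Poly(A)-selected RNA of islets from 3 control and 3 bKO mice was sequenced in read pairs. Per the series' design text, HISAT2 2.0.5 placed the reads on GRCm38 and featureCounts 1.5.0-p3 quantified genes. DESeq2 1.20.0 and CASAVA stand in the submitters' processing notes without a role. The sources used here give neither the annotation release nor the strand setting. Values the authors deposited are FPKM per gene and library. Multiplied by gene length they were whole multiples of 1 step per library within 0.01 for 100% of values above 0, so reads were recovered. The steps equal median-of-ratios scaling (size factors 0.9235 to 0.9882 in control, 1.0395 to 1.1014 in bKO). Columns of other samples numbered 0.

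limma 3.58.1 (R 4.3.3) was fitted with a mean-variance trend to log2(FPKM + 1), bKO minus control, over genes with at least 0.5 FPKM in at least 3 libraries, with Benjamini-Hochberg adjustment over all 15717 genes and a threshold of 0.05. Fold changes are on that log2 scale. On simulated reads for 15878 genes of this comparison the fit recovered 67.8% of genes changed 1.5-fold and 98.4% of those changed 4-fold, and 20 of its 174 calls were of unchanged genes, more than the threshold allows on average. The simulation changed only 59 to 62 genes per fold size, gave all genes 1 dispersion (0.00228) and scaled by total reads. These rates need not hold for the data, where 3192 genes were called and scaling was by median of ratios. Libraries of 1 group differed beyond sampling noise (chi-square per degree of freedom 4.09 to 6.50). Alternatives were total scaling, other filters and pseudocounts, limma-voom on recovered reads, quantile normalization, the replicate number as a block and leaving out each library. The members and lists were chosen with earlier results of these data known. From each list the called genes, up to 4, were named, with Trp53, Apaf1 and Casp9, and 1 further gene of the rule is not reported here. Positions are those of the table (GRCm38), overlaps come from GENCODE vM21 and promoter windows from RefSeq. The remaining steps ran in Python 3.11.15 with pandas 2.3.3, numpy 2.4.6 and matplotlib 3.10.9.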

Additional observations from a re-analysis of the deposited data

How the results depend on the processing

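The rise of Bbc3 was called under all 14 alternatives. The number of members called higher was 2 in the main fit. It was 1 with no filter or with the replicate number as a block, 3 with total scaling or quantile normalization, and 4 with voom. Without any one library it was 1 to 2. The number called lower, 0, was 1 with voom. With a pseudocount of 0.1 the difference of pro-survival minus pro-death members moved from 0.04 to 0.13, and without any one library it was 0.01 to 0.07. Among all genes 1408 were higher and 1784 lower, against 3684 and 737 with total scaling, 925 and 1152 with the block, and 852 to 1179 and 1037 to 1604 without any one library. Total scaling moved the median of all genes from -0.01 to 0.13, so the share of higher calls depends on it. Among the genes named as called, it turned the direction of Fkbp8, to 0.04, and other called genes were not examined one by one. The pairing by replicate number was not borne out, since same-numbered libraries had correlations of deviations of -0.052, -0.014 and -0.073. The block ended the call of Mcl1 (limma adjusted p = 0.084) and those of Birc5, Xiap, Tnfrsf1a, Ywhaz, Pim3 and Fkbp8. Over all settings the called genes ranged from 0 to 2 higher and 0 to 2 lower for other BCL2 family genes, 1 to 5 and 1 to 3 for the transcription factors, and 0 to 3 and 1 to 7 for genes acting on BCL2 proteins. Pmaip1 had the fewest reads of the family, 54 in control and 60 in bKO.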

Other observations

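Hrk (ENSMUSG00000046607, chromosome 5, 118164648 to 118189478, GRCm38), which encodes the BH3-only protein Harakiri known from neurons, was chosen after its values were seen. It had 0 reads in each of the 3 control libraries and 14, 5 and 8 reads in the bKO libraries. With the control group set to a floor of 3 reads in all, Hrk in bKO stood at 7.99 times that floor after scaling for library size. This value takes the bKO reads as counted and leaves out their counting error and the spread between mice. At 0.0486 to 0.128 FPKM in bKO, Hrk was far below the filter and was not tested. Of all genes, 28 had 0 reads in control, at least 1 read in every bKO library and at least 27 reads in bKO together, Hrk included.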
